A study of Mus musculus with 30 samples.

Results

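Proteobacteria and Desulfobacterota were minor phyla of the stool of these mice and held 3.48% of all bacterial reads. The taxa described here are the sequence variants whose taxon label in the authors' table names p__Proteobacteria or p__Desulfobacterota, without Mitochondria, and which had reads in at least 1 library. This rule found 37 of the 949 bacterial variants with reads, 25 in Proteobacteria and 12 in Desulfobacterota, in 15 of 97 genus-level taxa. A genus-level taxon is a genus, or the lowest name given above it where no genus was given ("unnamed Desulfovibrionaceae"). The genera include g__Parasutterella, g__Bilophila, g__Escherichia-Shigella and g__Pseudomonas. Helicobacter, another genus of gut bacteria once placed in Proteobacteria, stands in another phylum in this table and is not included. A variant is named below by its row in the table.

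Stool was collected from female mice that lack Gpr15l (Gpr15l-/-, here KO) and from wild-type (WT) females, and the V4 region of the bacterial 16S rRNA gene was sequenced. Gpr15l is the gene of an epithelial peptide that binds GPR15, a homing receptor of lymphocytes. The 6 groups were KO and WT at weaning (about 4 weeks of age), KO and WT after co-housing (4 to 5 weeks in cages of 2 to 7 mice of both genotypes), and KO and WT after re-separation (6 more weeks with the genotypes kept apart), with 5 libraries each. Libraries 1 to 5 (KO) and 6 to 10 (WT) came from weaning. Co-housing gave libraries 11 to 15 (KO) and 16 to 20 (WT), and re-separation libraries 21 to 25 (KO) and 26 to 30 (WT). The design asks if a genotype difference lasts when both genotypes live in 1 cage, where bacteria pass between mice, and after they are parted. No group was kept apart by genotype to the age of the co-housed mice, so co-housing cannot be told apart from age. The labels name no cage, litter or tracked mouse, so the spread behind each p-value is that between libraries, which may be partly technical. Bacterial reads carry no mouse gene, so genotype rests on the labels.

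Parasutterella is a strictly anaerobic member of the Burkholderiales that uses hardly any sugar and is a usual resident of the mouse gut. The Desulfovibrionaceae (Desulfovibrio, Bilophila and relatives) respire with oxidised sulfur compounds and release hydrogen sulfide: Desulfovibrio reduces sulfate, and Bilophila reduces sulfite set free from taurine, an amino acid joined to bile acids. Escherichia-Shigella stands for facultative anaerobes, which can also grow with oxygen and are usually scarce in a mature gut. Pseudomonas lives mainly in water and soil and is one of the genera often found in reagents of DNA extraction and PCR.

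Bacterial reads numbered 10491 to 52364 per library at weaning and co-housing (20 libraries, the first set) and 39703 to 73588 per library at re-separation (10 libraries, the second set). Of the 37 variants, 22 had reads in the first set of libraries, 15 in the second and 0 in both, as held for all 949 bacterial variants. Variants were therefore compared within a set and genus-level taxa across sets, and in every comparison that reaches into re-separation, time cannot be told apart from library set. In distance between whole communities, libraries 1, 5, 11 and 19 stood farthest from the other libraries of their groups, with mean Bray-Curtis dissimilarities to them of 0.749, 0.606, 0.547 and 0.543. No pair of libraries within a group was alike to sampling noise (chi-square per degree of freedom 28.5 to 249 over 60 pairs). Shares are percentages of bacterial reads, so a taxon can gain or lose share because others do. Reads of a taxon also follow its number of 16S copies and its PCR yield.

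On average the 37 variants together made up a larger share of the reads at weaning than later, in both genotypes. Their summed share was 5.96% ± 2.33 in KO and 5.24% ± 3.12 in WT at weaning, 2.26% ± 0.748 in KO and 2.58% ± 0.685 in WT after co-housing, and 3.26% ± 1.34 in KO and 2.91% ± 1.19 in WT after re-separation (SD, n = 5 each). Libraries overlapped: the WT sum ran from 1.16% to 8.82% at weaning, 2.00% to 3.43% after co-housing and 1.98% to 4.61% after re-separation. KO weaning libraries (3.64% to 9.28%) overlapped re-separated KO libraries (up to 5.30%) but not co-housed ones (up to 3.13%). Parasutterella supplied 63.0% of the reads of the 37 variants, unnamed Desulfovibrionaceae 24.4% and Desulfovibrio 6.93%. The unnamed Rickettsiales, Bilophila, Pseudomonas and Escherichia-Shigella supplied 1.98%, 1.20%, 1.09% and 0.648%. Desulfobacterota alone were in another order, with 1.62% ± 1.80 in KO and 0.358% ± 0.172 in WT at weaning, 1.34% ± 0.356 in KO and 1.79% ± 0.889 in WT after co-housing, and 0.960% ± 0.400 in KO and 1.16% ± 0.121 in WT after re-separation. The high KO mean of Desulfobacterota at weaning rested on libraries 3 and 5, as libraries 1, 2 and 4 held 0.282% to 0.483%. By median, KO mice were lowest at weaning (0.483%), against 1.17% after co-housing and 0.828% after re-separation. In WT mice weaning was lowest by mean as well. Sums over the variants were given no test.

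The leading taxon of the set changed with time. Parasutterella had the highest share of the 15 taxa in 3 of 5 KO and 5 of 5 WT libraries at weaning, in 1 of 5 KO and 1 of 5 WT libraries after co-housing, and in 3 of 5 KO and 4 of 5 WT libraries after re-separation. In the other co-housed libraries unnamed Desulfovibrionaceae led in 3 KO and 3 WT libraries and Desulfovibrio in 1 of each genotype. Without Parasutterella, the remaining taxa summed at weaning to 0.434% to 4.57% (KO) and 0.208% to 0.651% (WT). These ranges overlap, and libraries 3 and 5 made up the upper end in KO.

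**Figure D1:**
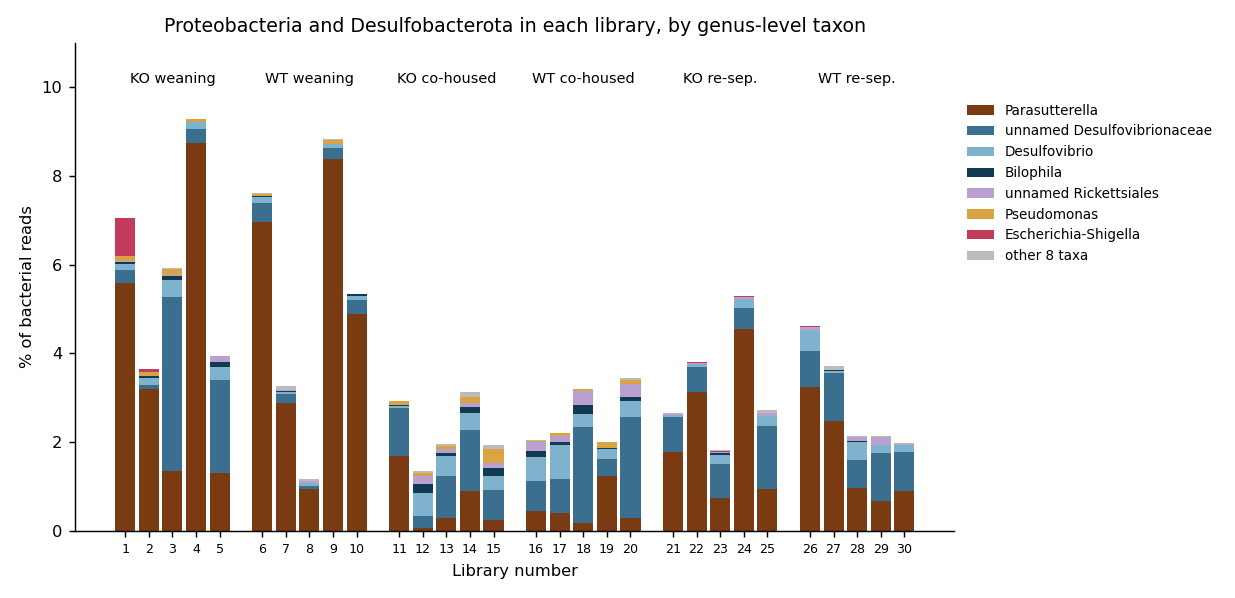
Share of bacterial reads (y axis, %) of the Proteobacteria and Desulfobacterota in each of the 30 libraries (x axis), stacked by genus-level taxon, with the other 8 taxa in grey. Parasutterella fills most of the bar in all 5 WT weaning libraries, while libraries 3 and 5 (KO, weaning) and most co-housed libraries are led by Desulfovibrionaceae.

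The main test was edgeR's quasi-likelihood test, run on the counts of all taxa or variants that reached 10 reads in 3 libraries, and a taxon is called at a Benjamini-Hochberg adjusted p under 0.05 over all of them. Of the 15 genus-level taxa, 8 passed the filter among 72 in all; the other 7 (Moraxella, Acinetobacter, Methylobacterium-Methylorubrum, Rodentibacter, Haemophilus, Muribacter and Achromobacter) were too rare to test. Between the genotypes, 1 of 8 was called at weaning, where 22.2% of all 72 were called. After co-housing 0 of 8 were called against 1.39% of all, and after re-separation 0 of 8 against 0% of all. In both, 0 of 8 reached an unadjusted p under 0.05, and DESeq2 and limma-voom called 0. Escherichia-Shigella and unnamed Rhodospirillales had 0 reads in both genotypes after co-housing, and Pseudomonas after re-separation, so these taxa could not be called there.

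More was called between times. For co-housing against weaning, 2 of 8 were called in KO (31.9% of all taxa) and 1 of 8 in WT (29.2% of all). Unnamed Rhodospirillales had 0 reads in both of these KO groups and could not be called in KO. For re-separation against weaning, 2 of 8 were called in KO (26.4% of all) and 1 of 8 in WT (12.5% of all). For re-separation against co-housing, 4 of 8 were called in KO (19.4% of all) and 1 of 8 in WT (1.39% of all), and the 1 WT call was the single taxon of all 72 called there, Pseudomonas. The change over time was also compared between the genotypes (an interaction, KO change minus WT change). It called 0 of 8 for co-housing against weaning (4.17% of all), 0 of 8 for re-separation against weaning (18.1% of all) and 0 of 8 for re-separation against co-housing (0% of all). In these 3 tests, 0 of 8 had an unadjusted p under 0.05, and DESeq2 and limma-voom called 0. A taxon with 0 reads in both genotypes at 1 of the 2 times had no estimable interaction and could not be called. This held for Escherichia-Shigella and unnamed Rhodospirillales in both tests with co-housing, and for Pseudomonas in both tests with re-separation.

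At the level of variants, 9 of the 22 in the first set and 8 of the 15 in the second passed the filter. Between KO and WT, 0 of 9 were called at weaning (20.9% of 292 variants; 1 at an unadjusted p under 0.05), 0 of 9 after co-housing (1.03%; 0 unadjusted) and 0 of 8 after re-separation (1.44% of 278; 0 unadjusted), and DESeq2 and limma-voom called 0 in each. For co-housing against weaning, 1 of 9 was called in KO (27.1%) and 0 of 9 in WT (0.685%). Of the 9 variants in WT, 3 had an unadjusted p under 0.05, DESeq2 called 3 and limma-voom called 2. Over all 292 variants the same counts in WT were 96, 34 and 57. The interaction of genotype and time called 0 of 9 (6.16%, with 0 unadjusted, and 0 by DESeq2 and limma-voom). Row 423 had 0 reads in both genotypes after co-housing, so it could not be called between KO and WT there, nor in the interaction.

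Parasutterella was present in all 30 libraries, with its lowest group means after co-housing in both genotypes. At weaning KO libraries held 5.58%, 3.20%, 1.35%, 8.75% and 1.31% and WT libraries 6.95%, 2.88%, 0.947%, 8.37% and 4.88%. After co-housing KO libraries held 1.69%, 0.0622%, 0.294%, 0.899% and 0.243% and WT libraries 0.443%, 0.409%, 0.181%, 1.23% and 0.287%. After re-separation KO libraries held 1.78%, 3.12%, 0.738%, 4.54% and 0.950% and WT libraries 3.24%, 2.47%, 0.973%, 0.663% and 0.899%. The genotypes overlapped at each time. The co-housed libraries were mostly below the weaning ones, with overlap through library 11 in KO and libraries 19 and 8 in WT.

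Group means of Parasutterella were 4.04% ± 3.16 in KO and 4.81% ± 3.00 in WT at weaning, 0.637% ± 0.667 in KO and 0.510% ± 0.415 in WT after co-housing, and 2.23% ± 1.60 in KO and 1.65% ± 1.14 in WT after re-separation (SD, n = 5 each). In order of level, WT and KO at weaning were highest, then KO and WT after re-separation, then KO and WT after co-housing, and the 2 genotypes next to each other at a time did not differ beyond their spread. Parasutterella fell in co-housed against weaning KO mice, with a log2 fold change of -3.24 ± 0.87 (SE; adjusted p = 0.002836, edgeR quasi-likelihood test). It fell likewise in co-housed against weaning WT mice, with a log2 fold change of -4.09 ± 0.91 (adjusted p = 0.002067, edgeR). Over the same libraries the median log2 fold change of all 72 taxa was 0.74 in KO and 0.90 in WT, on the side of a gain.

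After re-separation Parasutterella rose in KO mice against co-housed KO mice, with a log2 fold change of 2.51 ± 0.85 (adjusted p = 0.03062, edgeR). That call did not hold without library 12, 13, 15, 21, 22 or 24, each left out alone (highest adjusted p = 0.1116). In re-separated against co-housed WT mice the log2 fold change was 1.84 ± 0.83 and was not called (adjusted p = 0.2711, edgeR). Without library 19 it was 2.83 and was called (adjusted p = 0.04795, edgeR). Re-separation against weaning gave log2 fold changes of -0.73 ± 0.81 in KO (adjusted p = 0.6476) and -2.25 ± 0.84 in WT (adjusted p = 0.0571, edgeR), neither called, and the WT value was called without library 26 (-2.79, adjusted p = 0.03759).

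Between KO and WT the log2 fold change of Parasutterella was -0.82 ± 0.81 at weaning (adjusted p = 0.4756), 0.02 ± 0.80 after co-housing (adjusted p = 1) and 0.70 ± 0.81 after re-separation (adjusted p = 0.807, edgeR). None was called, and with these errors a genotype difference of a few fold was not detectable. The interaction of genotype and time was not called for Parasutterella, with log2 values of 0.85 ± 1.14 for co-housing against weaning, 1.52 ± 1.14 for re-separation against weaning and 0.67 ± 1.14 for re-separation against co-housing (adjusted p = 0.7669, 0.3931 and 0.9998, edgeR).

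The drop of Parasutterella from weaning to co-housing was called by the count models but not by a test on shares alone. An exact two-sided permutation test of the shares gave a difference of -3.40 percentage points in KO (adjusted p = 0.1905 over 72 taxa) and -4.30 in WT (adjusted p = 0.05442). The call in KO did not hold without library 4 (log2 fold change -2.19, adjusted p = 0.05407, edgeR), the weaning library with the highest share. The call in WT held with each library left out in turn (-5.08 to -3.50).

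Libraries 11 and 19 had the highest Parasutterella of the co-housed KO and WT mice. Library 11 held 1.69%, against 0.374% ± 0.363 in the other 4 KO libraries, and library 19 held 1.23%, against 0.330% ± 0.120 in the other 4 WT libraries (SD, n = 4 each). The same libraries were lowest of their groups in Desulfovibrio, Bilophila and unnamed Rickettsiales, but not both in unnamed Desulfovibrionaceae. Desulfovibrio was at 0.0510% in library 11 against 0.314% to 0.516% in the other KO libraries, and at 0.221% in library 19 against 0.305% to 0.765% in the other WT libraries. Bilophila was at 0.0196% in library 11 against 0.0608% to 0.224%, and at 0.0344% in library 19 against 0.0751% to 0.195%. The unnamed Desulfovibrionaceae were at 1.08% in library 11, second highest of a group whose other libraries ran from 0.261% to 1.38%, and at 0.383% in library 19, lowest of its group (0.680% to 2.28% in the others). Mitochondrial reads were also lowest there, with 0.0393% and 0.0687% of all reads, against 0.255% to 0.829% in the other 8 co-housed libraries. Without both libraries, a choice made after seeing the data, the log2 fold change of Parasutterella for co-housing against weaning was -3.88 in KO (adjusted p = 0.00111) and -5.08 in WT (adjusted p = 0.0001883, edgeR), both called as before.

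**Figure D2:**
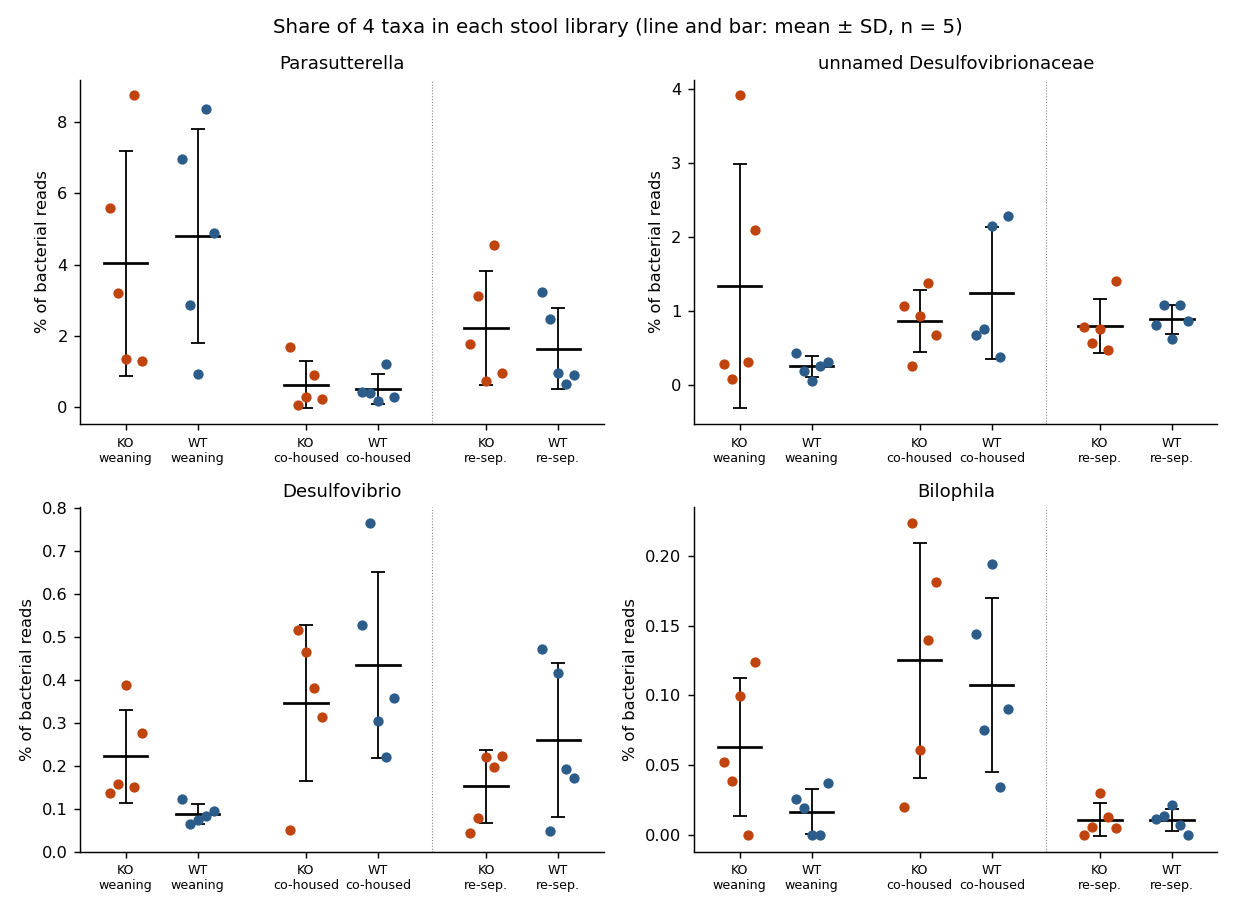
Share of bacterial reads (y axes, %) of Parasutterella, unnamed Desulfovibrionaceae, Desulfovibrio and Bilophila in the KO (orange) and WT (blue) libraries of each time; points are libraries, lines and bars the mean ± SD (n = 5), and the dotted line parts the 2 sets of libraries. Parasutterella has its lowest group means after co-housing (0.637% in KO and 0.510% in WT). Desulfovibrio does not overlap between KO and WT at weaning, where it was not called. How many of all taxa likewise do not overlap was not counted. The group means of Bilophila are highest after co-housing.

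Nearly all Parasutterella reads came from 1 variant in each set of libraries, with a second variant at up to 10.4% of the genus. In the first set these were row 424 (leading) and row 423 (second), and in the second set row 1498 and row 1496. Whether row 423 and row 1496 hold the same sequence was not analysed here. The leading variant was in every library but library 12, whose 10 Parasutterella reads all came from row 156, a variant seen in no other library. Row 221 had 2 reads in library 10. Row 424 averaged 3.73% ± 2.80 in KO and 4.71% ± 2.94 in WT at weaning, and 0.625% ± 0.680 in KO and 0.510% ± 0.415 in WT after co-housing (SD, n = 5 each).

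The leading variant by itself was not called between weaning and co-housing. Row 424 had a log2 fold change of -2.54 ± 1.15 in KO (adjusted p = 0.07926) and -3.46 ± 1.19 in WT (adjusted p = 0.06713) for co-housing against weaning, by edgeR over 292 variants. Without library 11 the KO value was called (adjusted p = 0.04085), and without library 19 the WT value was called (adjusted p = 0.04992). At weaning KO and WT differed in row 424 by a log2 fold change of -0.63 ± 1.09 (adjusted p = 0.8253). Row 423 was called: it averaged 0.307% ± 0.361 in KO at weaning and had 0 reads in the 5 co-housed KO libraries, which makes it at least 24.8-fold lower there against a floor of 3 reads per library (adjusted p = 0.0164, edgeR). Without library 4 that bound was 13.7-fold and the variant was not called (adjusted p = 0.0516). In WT, row 423 averaged 0.0920% ± 0.137 at weaning and had 0 reads after co-housing (at least 8.59-fold lower, adjusted p = 0.06713, not called; 3.58-fold without library 6).

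As a share of each library's Parasutterella reads, the second variant was absent or made up between 1.18% and 10.4%. At weaning it made up 8.22%, 6.87% and 9.81% in KO libraries 1, 2 and 4 and was absent from libraries 3 and 5. In WT libraries at weaning it made up 4.41% in library 6 and 3.15% in library 10 and was absent from libraries 7, 8 and 9. Library 9 had 0 of 1694 Parasutterella reads from it, which allows a share of up to 0.177%, far under the levels of libraries 6 and 10. In the 10 co-housed libraries it was absent from all, with limits between 0.698% and 30% that follow the few Parasutterella reads there. The limits cover counting error only.

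After re-separation the second variant of that set (row 1496) had a higher share of the genus in every WT library than in any KO library. It made up 5.68% and 1.18% of Parasutterella reads in KO libraries 22 and 24 and was absent from KO libraries 21, 23 and 25, against 10.2%, 8.90%, 9.65%, 9.04% and 10.4% in the WT libraries. The groups did not overlap, and the 5 WT libraries lay close together (9.62% ± 0.651, against 1.37% ± 2.46 in KO; SD, n = 5 each). In the 3 KO libraries without it, 0 of 1119, 0 of 418 and 0 of 588 reads allow shares of up to 0.268%, 0.718% and 0.510%, far under the WT levels. This ratio was chosen after the values were seen and was given no test. As a share of all bacterial reads, row 1496 was not called between KO and WT (log2 fold change -1.88 ± 1.55, adjusted p = 0.6888, edgeR over 278 variants), and neither was the leading row 1498 (0.65 ± 0.66, adjusted p = 0.7318).

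**Figure D3:**
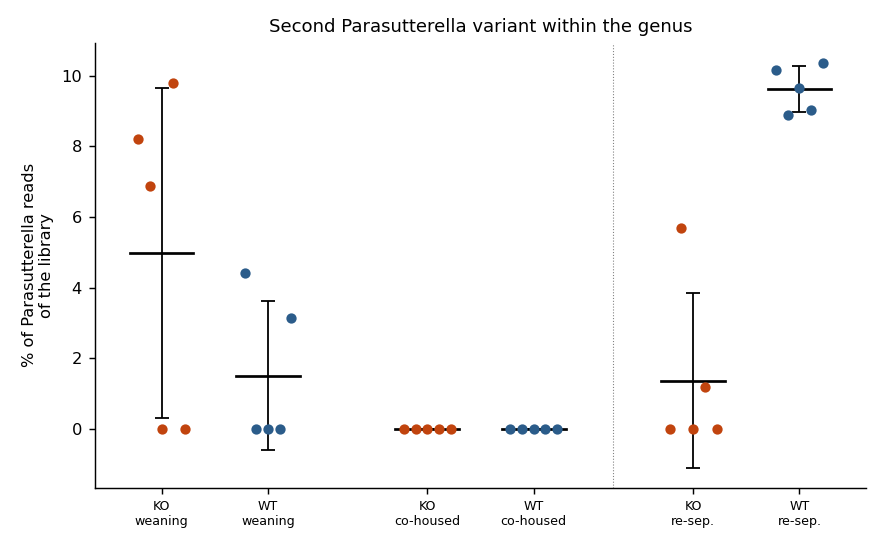
Reads of the second Parasutterella variant (row 423 at weaning and co-housing, row 1496 at re-separation) as a percentage of all Parasutterella reads of the library (y axis), for KO (orange) and WT (blue) libraries by group; lines and bars are the mean ± SD (n = 5). The variant is at 0 in all co-housed libraries, and after re-separation the 5 WT libraries lie between 8.90% and 10.4%, all above the KO libraries (0 to 5.68%).

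The taxa outside these phyla whose pattern was most like that of Parasutterella all belonged to the Bacteroidales, an order of anaerobes that degrade polysaccharides. Over the 20 libraries of the first set, Spearman correlations of centred log-ratios with Parasutterella were 0.922 for Muribaculaceae, 0.901 for Prevotellaceae_UCG-001 and 0.883 for Bacteroides. Over the 10 re-separation libraries, which did not choose them, the same correlations were 0.794, 0.588 and 0.746. The points share their library, its depth and the closed sum of reads, and no p is given. Like Parasutterella, all of these taxa had their lowest group means after co-housing in both genotypes. Prevotellaceae_UCG-001 and Bacteroides were highest at weaning in both genotypes, and Muribaculaceae in WT only. Prevotellaceae_UCG-001 averaged 21.9% ± 8.08 in KO and 32.1% ± 3.31 in WT at weaning. After co-housing it averaged 14.1% ± 9.31 in KO and 15.8% ± 4.96 in WT. After re-separation it averaged 16.7% ± 2.81 in KO and 21.4% ± 6.26 in WT. Muribaculaceae averaged 20.1% ± 12.9 in KO and 27.2% ± 7.92 in WT at weaning, 7.25% ± 2.59 in KO and 10.8% ± 8.39 in WT after co-housing, and 28.7% ± 10.4 in KO and 18.7% ± 6.23 in WT after re-separation, so that its KO mean was highest after re-separation. Bacteroides averaged 8.51% ± 5.30 in KO and 7.10% ± 4.57 in WT at weaning, 1.30% ± 0.949 in KO and 2.33% ± 2.57 in WT after co-housing, and 3.52% ± 0.894 in KO and 3.33% ± 1.27 in WT after re-separation, below its weaning means. Other genera of the Sutterellaceae, the family of Parasutterella, were looked for under the names Sutterella and Turicimonas, and 1 of the 3 listed genera, Parasutterella, had reads.

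The sulfur-respiring Desulfovibrionaceae made up all of the Desulfobacterota here. Of the 4 listed genera of this family, Desulfovibrio and Bilophila had reads and Lawsonia and Mailhella were not listed with any. Most reads of the family had no genus name and came from row 163 in the first set of libraries and row 869 in the second. Row 162 averaged 0.0969% in KO and 0.0211% in WT at weaning and 0.181% in KO and 0.205% in WT after co-housing, and row 865 averaged 0.0576% in KO and 0.102% in WT after re-separation. As a share of Desulfovibrionaceae reads, row 869 averaged 76.9% ± 12.7 in KO and 67.9% ± 20.3 in WT after re-separation. None of the family's 3 genus-level taxa was called by edgeR in any of the 9 comparisons between groups (2 of 27 tests had an unadjusted p under 0.05). Per comparison, edgeR called 0% to 31.9% of all 72 taxa, and 5 to 34 of the 72 had an unadjusted p under 0.05. DESeq2 and limma-voom each called 1, Bilophila in re-separated against co-housed KO mice, where they called 13 and 16 of all 72 taxa. Some other alternative settings of the count models also gave calls in this family, as stated below.

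The unnamed Desulfovibrionaceae had high shares in 2 of the 5 KO libraries at weaning. Their share was 0.293%, 0.0851%, 3.91%, 0.311% and 2.10% in KO and 0.438%, 0.192%, 0.0611%, 0.257% and 0.320% in WT libraries. Only libraries 3 and 5 stood above the WT range. The means were 1.34% ± 1.65 in KO and 0.254% ± 0.141 in WT, and the log2 fold change was 1.12 ± 0.79 (adjusted p = 0.2876, edgeR). Scaling by library size in place of TMM factors gave 2.40 and a call (adjusted p = 0.0273), with a shift of 0.43 in the median of all taxa in the same direction. The same 2 libraries had the lowest Parasutterella of the group, 1.35% and 1.31%. They also had its highest Desulfovibrio (0.388% and 0.276%) and Bilophila (0.0999% and 0.124%).

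After co-housing the unnamed Desulfovibrionaceae overlapped between the genotypes, with 0.865% ± 0.422 in KO and 1.25% ± 0.892 in WT, and after re-separation they averaged 0.797% ± 0.362 in KO and 0.892% ± 0.195 in WT (SD, n = 5 each). In WT mice their share was higher after weaning: it was 0.620% to 1.08% after re-separation, against 0.0611% to 0.438% at weaning, with no overlap. The exact permutation test of shares called this difference (0.638 percentage points, adjusted p = 0.03175), as it did 25% of all 72 taxa in that comparison. The edgeR log2 fold change was 1.12 ± 0.79 and was not called (adjusted p = 0.3181). Co-housed against weaning WT mice gave a log2 fold change of 1.30 ± 0.79 (adjusted p = 0.185, edgeR), not called. Of 19 alternative settings of the count models, 1 called it, and their values ran from 0.78 to 2.30.

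Desulfovibrio, the sulfate reducer, was found in all 30 libraries. Its shares did not overlap between the genotypes at weaning, a difference called neither by edgeR nor by the exact permutation test of shares. KO libraries held 0.137%, 0.158%, 0.388%, 0.151% and 0.276% and WT libraries 0.123%, 0.0639%, 0.0745%, 0.0840% and 0.0953%. Every KO library was above every WT library, although library 1 (0.137%) and library 6 (0.123%) were close. The exact permutation test of these shares gave p = 0.007937, the smallest it can give with 5 against 5 libraries, and an adjusted p = 0.1905 over 72 taxa, where it called 0% of them. With TMM scaling the edgeR log2 fold change was 0.39 ± 0.89 (adjusted p = 0.8194), and scaling by library size gave 1.32, neither called. How many of all 72 taxa likewise did not overlap was not counted, here or in the other comparisons. The genotypes overlapped at the other times, with 0.345% ± 0.182 in KO and 0.435% ± 0.216 in WT after co-housing and 0.152% ± 0.0851 in KO and 0.260% ± 0.178 in WT after re-separation.

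In WT mice Desulfovibrio was at 0.528%, 0.765%, 0.305%, 0.221% and 0.357% after co-housing, all above the 0.0639% to 0.123% of weaning. The exact permutation test of shares called it (0.347 percentage points, adjusted p = 0.0381), as it did 20.8% of all 72 taxa. The edgeR log2 fold change was 1.30 ± 0.90 (adjusted p = 0.2272), not called. Of 19 alternative settings of the count models, 1 called it, and their values ran from 0.81 to 2.30. Row 144 and row 150 passed the filter in the first set. Row 144 was in every library of that set, and row 150 had 0 reads in the 5 WT weaning libraries and averaged 0.0563% ± 0.0264 in the 5 co-housed WT libraries, at least 4.66-fold higher there against the floor of 3 reads per library (adjusted p = 0.06713, edgeR, not called). In KO, row 150 had reads in 4 of 5 co-housed and 1 of 5 weaning libraries. In the second set row 820 averaged 0.128% ± 0.0707 in KO and 0.246% ± 0.185 in WT, not called (adjusted p = 0.6969, edgeR).

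Bilophila, the user of taurine sulfite, was the rarest of the family. It averaged 0.0628% ± 0.0494 in KO and 0.0164% ± 0.0163 in WT at weaning, 0.125% ± 0.0843 in KO and 0.108% ± 0.0625 in WT after co-housing, and 0.0106% ± 0.0117 in KO and 0.0104% ± 0.00785 in WT after re-separation (SD, n = 5 each). The highest group means thus stood in co-housed mice of both genotypes. Co-housing against weaning gave log2 fold changes of 1.20 ± 1.23 in KO (adjusted p = 0.5072) and 1.84 ± 1.26 in WT (adjusted p = 0.2272, edgeR), neither called. In WT mice the shares were 0.0109%, 0.0131%, 0.0213%, 0.00685% and 0 after re-separation, against 0.144%, 0.0751%, 0.195%, 0.0344% and 0.0900% after co-housing, and the groups did not overlap. The exact permutation test of these shares gave p = 0.007937 and an adjusted p = 0.127, and it called 0% of all taxa in that comparison. By edgeR the log2 fold changes for re-separation against co-housing were -3.05 ± 1.30 in KO (adjusted p = 0.08866) and -3.00 ± 1.30 in WT (adjusted p = 0.2711), not called. Of 19 alternative settings of the count models, 3 called the KO value and 1 called the WT value. All Bilophila reads of the first set came from row 161.

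Escherichia-Shigella was the 1 taxon of the set called between KO and WT at weaning, and the call rested on 1 library. KO library 1 had 181 reads (0.856% of its reads), library 2 had 20 and libraries 3, 4 and 5 had 0, while of the WT libraries library 8 had 2 reads and the other 4 had 0. The log2 fold change was 6.27 ± 2.02 (adjusted p = 0.01901, edgeR). Without library 1 it was 3.03 and was not called (adjusted p = 0.2133). Because WT held 2 reads in all, the fold itself is loose: pooled reads gave a KO to WT ratio of 130 (35.5 to 1079, exact 95% interval), and 15.8 (3.84 to 139) without library 1, intervals that cover counting error only. Library 1 was also the library farthest from its group in whole-community distance.

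All Escherichia-Shigella reads of the first set came from row 148. After co-housing the genus had 0 reads in all 10 libraries. Against weaning it was at least 14.8-fold lower in co-housed KO mice (adjusted p = 0.002695, edgeR; floor 0.0124%), a bound that was 1.18-fold without library 1, where the call was lost (adjusted p = 0.05475). After re-separation it had 11, 3 and 24 reads in KO libraries 22, 23 and 24 and 4, 3 and 5 reads in WT libraries 26, 28 and 29, with 0 reads in the other 2 libraries of each genotype. In KO the call against co-housing (adjusted p = 0.04972, edgeR) stood on a mean of 0.0128% against a floor of 0.0124%. It was lost when any 1 of libraries 11, 12, 13, 14, 15, 21, 22 or 24 was left out (highest adjusted p = 0.1197). Of 7 listed genera of Enterobacterales, the order that also holds Klebsiella, Proteus and Citrobacter, Escherichia-Shigella was the 1 with reads.

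Pseudomonas was present in 17 of the 20 libraries of the first set and in 0 of the 10 of the second, those from re-separation. At weaning KO libraries held 23, 29, 22, 21 and 0 reads and WT libraries 8, 0, 3, 16 and 0. After co-housing KO libraries held 25, 12, 30, 27 and 99 reads and WT libraries 7, 16, 24, 27 and 35. Mean shares were 0.0773% ± 0.0498 in KO and 0.0238% ± 0.0340 in WT at weaning, and 0.139% ± 0.104 in KO and 0.0783% ± 0.0426 in WT after co-housing (SD, n = 5 each), with overlap between the genotypes. Nearly all of these reads came from row 16. The re-separation libraries, without it, were the deeper set.

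All 4 comparisons of Pseudomonas into re-separation were called by edgeR and none by the exact permutation test of shares. It was at least 15.3-fold lower in re-separated than in weaning KO mice (adjusted p = 0.0005729) and at least 4.15-fold lower in WT (adjusted p = 0.004958, edgeR), a WT bound that was 1.74-fold without library 9. Against co-housing it was at least 27.6-fold lower in KO (adjusted p = 0.000747) and at least 13.7-fold lower in WT (adjusted p = 0.001837, edgeR). The permutation test gave adjusted p = 0.2143 in KO and 0.2553 in WT against weaning, and 0.06349 in KO and 0.127 in WT against co-housing. In the KO comparisons it called 0% of all 72 taxa. In WT it called 25% of them against weaning and 0% against co-housing. These are the comparisons in which time cannot be told apart from library set. Of the other genera listed as common in reagents, 3 had reads and they did not all follow the same sets. Methylobacterium-Methylorubrum, a genus of water and air, had reads in 11 of the 20 libraries of the first set (at most 31) and in 0 of 10 of the second. Acinetobacter had 2 reads in library 20, in the first set, and Achromobacter 2 reads in library 22, in the second, so that 4 of 13 listed reagent genera had reads. Their sum reached 0.421% in the KO co-housed group (library 15) and 0.00377% over the re-separation libraries. The 5 listed skin genera, chloroplast reads and reads with no kingdom were at 0 in every library. The share of Pseudomonas had a Spearman correlation of -0.178 with the number of bacterial reads over the 20 libraries, which share their set. The part of reagents in these reads was not tested.

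**Figure D4:**
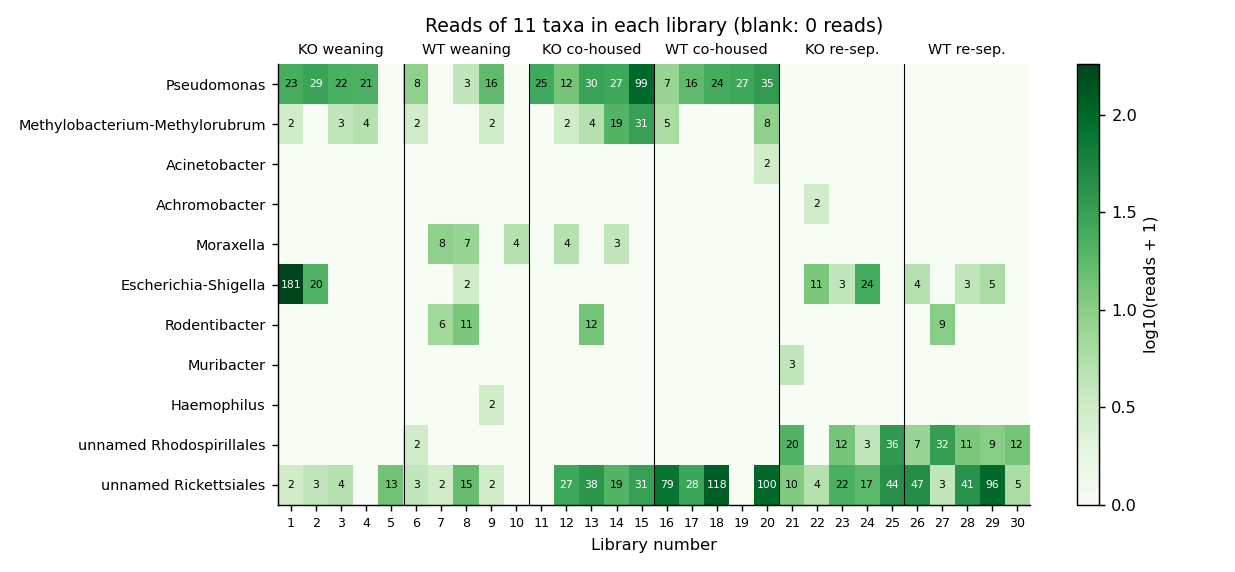
Number of reads (printed in each cell; colour is log10 of reads + 1) of 11 taxa (rows) in each of the 30 libraries (columns), KO left of WT at each time. Pseudomonas and Methylobacterium-Methylorubrum have no reads in libraries 21 to 30, and unnamed Rhodospirillales have reads almost only there.

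Unnamed Rhodospirillales, an order of Alphaproteobacteria with gut members that have no cultured genus, showed the opposite split. They had reads in 1 of 20 libraries of the first set (2 reads in library 6) and in 9 of 10 of the second, with 20, 0, 12, 3 and 36 reads in re-separated KO libraries and 7, 32, 11, 9 and 12 in re-separated WT libraries. In KO they were at least 1.48-fold higher after re-separation than at weaning (adjusted p = 0.02424) and at least 1.87-fold higher than after co-housing (adjusted p = 0.02574, edgeR). In WT the log2 fold change against weaning was 3.49 ± 1.76 (adjusted p = 0.154), and against co-housing they were at least 2.69-fold higher (adjusted p = 0.06338, edgeR), neither called. The first KO call was lost without library 3 and the second KO call without library 12, 13 or 21 (highest adjusted p = 0.05274). Without library 25 the KO mean lay under the weaning floor, and the bound against co-housing was 1.17-fold. Here too, time cannot be told apart from library set.

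Unnamed Rickettsiales moved with the mitochondrial reads of the same libraries. Rickettsiales are bacteria that live inside host cells and are relatives of the ancestor of mitochondria, so that a classifier can give short 16S reads of mitochondria either name. The taxon averaged 0.0331% ± 0.0514 in KO and 0.0128% ± 0.0103 in WT at weaning, 0.0905% ± 0.0598 in KO and 0.189% ± 0.127 in WT after co-housing, and 0.0320% ± 0.0248 in KO and 0.0640% ± 0.0635 in WT after re-separation (SD, n = 5 each). All its reads of the first set came from row 2. For co-housed against weaning WT mice the log2 fold change was 2.93 ± 1.31 (adjusted p = 0.06622, edgeR), and without library 19 it was 3.25 and was called (adjusted p = 0.04299). Reads named Mitochondria averaged 0.166% of all reads in KO and 0.0332% in WT at weaning, 0.435% in KO and 0.608% in WT after co-housing, and 0.0924% in KO and 0.161% in WT after re-separation. Library 5 carried both KO weaning means: without it Rickettsiales averaged 0.0104% ± 0.00971 and mitochondrial reads 0.0443% ± 0.0306 (SD, n = 4). As percentages of all reads, the 2 had a Spearman correlation of 0.851 over the 20 libraries of the first set and 0.782 over the 10 of the second, where the points share their library and total. Libraries 4, 10, 11 and 19 had 0 Rickettsiales reads and 5, 14, 10 and 14 mitochondrial reads, while library 5, the highest of the KO weaning libraries, had 13 and 69. Whether these Rickettsiales reads are mitochondrial was not tested.

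**Figure D5:**
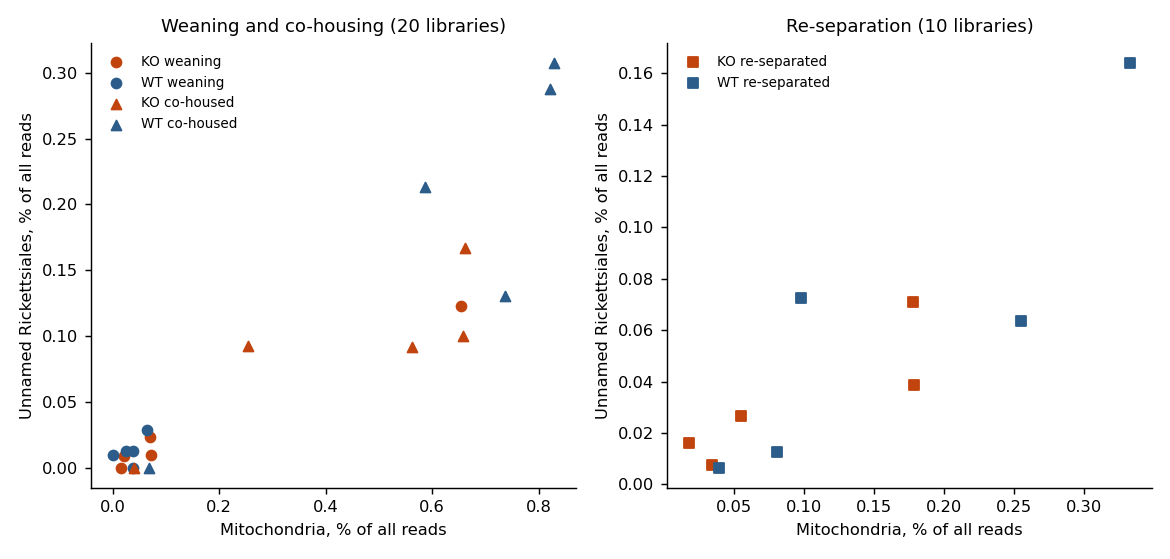
Reads of unnamed Rickettsiales against reads named Mitochondria, both as a percentage of all reads of the library (axes), for weaning and co-housing (left, 20 libraries) and re-separation (right, 10 libraries); orange points are KO and blue points WT. The 2 shares go up together in both sets, and co-housed libraries 11 and 19 lie at 0 Rickettsiales, near the low weaning libraries.

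The remaining genera were rare and are described by counts. Of the Pasteurellaceae, which live on mucous surfaces of rodents and other mammals, Rodentibacter had 12 reads in KO library 13, 6 and 11 reads in WT libraries 7 and 8 and 9 reads in WT library 27; Muribacter had 3 reads in library 21 and Haemophilus 2 in library 9. Moraxella, a genus of mucosal surfaces, had 4 and 3 reads in co-housed KO libraries 12 and 14 and 8, 7 and 4 reads in WT weaning libraries 7, 8 and 10, with 0 in the other 25 libraries. None of these genera passed the filter. In a group where they had 0 reads, the floor of 3 reads lay between 0.00408% (library 26) and 0.0286% (library 5) of a library's bacterial reads.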

How the data were processed

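The deposited table gives each sequence variant a taxon name and, for each library, its counts of reads, as whole numbers that were not normalized. Per the labels' protocols, stool DNA was extracted with a column kit and the V4 region of the 16S gene was amplified and sequenced in paired ends. R 4.5.1 and limma stand in the submitters' processing notes, their role unstated. Settings of denoising and classification, and any filter on low counts: not given in the sources used here. Of the 30 columns of counts, all were used. Only 5 counts equalled 1, and if the authors' steps dropped low counts, a listed 0 may stand for more than the floor of 3 reads, making the bounds too high. The 146 rows under the newer names Pseudomonadota or Thermodesulfobacteriota held 0 reads.

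Shares are percentages of bacterial reads, without the 4 mitochondrial variants. Counts were fitted with edgeR 4.0.16 under R 4.3.3 (robust glmQLFit and glmQLFTest after TMMwsp scaling), 1 coefficient per group, over all 30 libraries at genus level and within each set of libraries at variant level, after a filter of 10 reads in 3 libraries. P-values were adjusted by Benjamini-Hochberg over all features tested (72 taxa, 292 or 278 variants), with a threshold of 0.05. Fits were also run on simulated data with large set changes and 1 fixed spread, as a check of the code only. That check does not bear on the calls made here. Exact two-sided permutation tests of shares ran over 5 against 5 libraries. Where a group had 0 reads, folds are bounds against 3 reads per library, and intervals and floors cover counting error only, since PCR reads are not independent molecules. All taxa of the rule are named, and variants that were called or averaged at least 0.1% in a group, plus row 150, row 156 and row 221, chosen after their values were seen. Taxa most like Parasutterella were the 3 with the highest Spearman correlation of centred log-ratios (pseudocount 0.5) over 20 libraries. Alternatives were library size and DESeq2 size factors, other filters, DESeq2 1.42.0, limma-voom (limma 3.58.1), the groups compared alone, other scales for the permutation tests, and leaving out libraries. The members and lists were chosen with earlier results of these data known. Other steps ran in Python 3.11.15 (numpy 2.4.6, pandas 2.3.3, matplotlib 3.10.9, scipy 1.17.1).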

Additional observations from a re-analysis of the deposited data

Results flagged for a closer look

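Of 51 groups of 5 libraries in which at least 2 had reads, 4 held a library far from the other 4 by Dixon's criterion at 95%, which chance alone meets in about 1 in 20 groups of values without many zeros. Escherichia-Shigella was at 0.856% in library 1 (KO, weaning), where 3 of the other 4 libraries had 0 reads. Parasutterella was at 1.23% in library 19 (WT, co-housing). Pseudomonas was at 0.321% in library 15 (KO, co-housing), which also held the most Methylobacterium-Methylorubrum reads, 31. Unnamed Rickettsiales were at 0.124% in library 5 (KO, weaning), the library with the fewest reads and with the most mitochondrial reads of the weaning libraries, 69. In 2 further groups a single library had reads, so the criterion was met whatever the count and tests nothing: Escherichia-Shigella at 0.00382%, which is 2 reads, in library 8 (WT, weaning), and unnamed Rhodospirillales at 0.00851%, again 2 reads, in library 6 (WT, weaning).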

How the results depend on the processing

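Parasutterella kept its direction for co-housing against weaning in all alternatives run. The call in WT held in 19 of 19 and the call in KO in 18 of 19 count-model alternatives. Leaving out 1 library gave -3.88 to -2.19 in KO and -5.08 to -3.50 in WT. The exact permutation tests were weaker: in KO, -3.40 percentage points of share, -3.44 of rarefied share, and -3.65 and -3.53 in centred log-ratios with pseudocounts of 0.5 and 1; in WT, -4.30, -4.35 and, with the pseudocount of 0.5, -4.79. Re-separation against co-housing in KO was not called with library size scaling (1.80) or by permutation (1.59, rarefied 1.51, centred log-ratios 2.29 and 2.41), and leaving out 1 library gave 1.96 to 3.12. In WT it was called without libraries 11 and 19, an alternative chosen after seeing the data (2.83), and without libraries 1, 5, 11 and 19 (2.83), with 1.30 to 2.83 without 1 library. Re-separation against weaning in WT was called with no filter (-2.52), with the groups compared alone (-2.21), without libraries 11 and 19 (-2.25) and without libraries 1, 5, 11 and 19 (-2.25), with -2.79 to -1.67 without 1 library; in KO it ran between -1.28 and 0.32. KO against WT after co-housing, near 0, turned to -0.0158 with the stricter filter, -0.0384 with limma-voom and -0.61 to 1.02 without 1 library, and the interaction of re-separation against co-housing to -0.32 to 1.29. The cause of these changes was not tested. 

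The number of the 8 taxa called moved as follows. KO against WT at weaning gave 2 with library size scaling and 0 with the stricter filter, limma-voom, the groups compared alone, or without libraries 1, 5, 11 and 19 (0 to 1 without 1 library). These settings called 24 of 72, 14 of 56, 15 of 72, 7 of 46 and 14 of 71 of all taxa, in that order. Co-housing against weaning in KO gave 1 with the stricter filter and with the groups compared alone (1 to 2 without 1 library), and in WT 4 with library size scaling, 3 with no filter, and 2 with the stricter filter, DESeq2, or without libraries 11 and 19, with or without 1 and 5 (1 to 2 without 1 library). All taxa gave, in the same order, 19 of 56 and 11 of 52 in KO. In WT they gave 33 of 72, 25 of 97, 26 of 56, 18 of 72, 32 of 71 (without 11 and 19) and 35 of 71 (without 1, 5, 11 and 19). Re-separation against weaning in KO gave 1 with the stricter filter, DESeq2, or without libraries 1, 5, 11 and 19 (1 to 2 without 1 library), and in WT 3 with no filter and 2 with the groups compared alone or without libraries 11 and 19, with or without 1 and 5 (1 to 2 without 1 library). All taxa gave, in the same order, 15 of 56, 12 of 72 and 14 of 71 in KO. In WT they gave 11 of 97, 18 of 56, 11 of 71 (without 11 and 19) and 16 of 71 (without 1, 5, 11 and 19). Re-separation against co-housing in KO gave 2 with library size scaling, the stricter filter or the groups compared alone (1 to 4 without 1 library), and in WT 2 with DESeq2 size factors, DESeq2 or limma-voom and 3 with the groups compared alone or without libraries 11 and 19, with or without 1 and 5 (1 to 3 without 1 library). All taxa gave, in the same order, 8 of 72, 10 of 56 and 12 of 64 in KO. In WT they gave 2 of 72, 3 of 72, 3 of 72, 6 of 61, 6 of 71 (without 11 and 19) and 11 of 71 (without 1, 5, 11 and 19). The interaction of co-housing against weaning gave 2 with no filter, where 8 of all 97 taxa were called. Of the 9 variants, co-housing against weaning called 2 in KO with no filter, DESeq2, limma-voom or without libraries 11 and 19, and 0 without libraries 1, 5, 11 and 19 (0 to 2 without 1 library). All variants gave, in the same order, 59 of 483, 63 of 292, 36 of 292, 82 of 283 and 11 of 280 in KO. In WT co-housing against weaning called 1 of the 9 with no filter or without libraries 11 and 19, 3 with DESeq2, and 2 with limma-voom, the groups compared alone, or without libraries 1, 5, 11 and 19 (0 to 1 without 1 library). All variants gave, in the same order, 9 of 483, 11 of 283, 34 of 292, 57 of 292, 32 of 220 and 22 of 280 in WT. Row 1498, KO against WT after re-separation, ran from -0.0304 (without library 24) to 1.08 without 1 library. 

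Pseudomonas was called in all count-model alternatives of its 4 comparisons, and by permutation of shares in none of them (adjusted p between 0.03571 and 0.09524 on centred log-ratios with a pseudocount of 0.5). Library size scaling moved the median of all taxa by 0.43 between KO and WT at weaning and by 0.92 for co-housing against weaning in WT. No paired analysis was possible because the labels number the libraries 1 to 30 and share no number between groups. Depth limits the rarest taxa: a library with 0 reads can hold up to 0.0286% of a taxon.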
